A study of Rattus norvegicus with 2 samples.

Results

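Glucose entry and its breakdown to lactate were followed through 10 genes, 2 transporters and 8 enzymes, across the cell types and differentiation stages of the zygomatic maxillary suture of the rat, where cheek bone meets upper jaw. The genes were taken by name, whatever their values: Slc2a1, Slc2a3, Hk2, Pfkl, Aldoa, Pgk1, Eno1, Ldha, Pkm and Gapdh. Of the 10, 9 were found among the 22154 genes listed in at least 1 of the count tables, and Gapdh was not analysed here. In the distraction group a W-shaped spring of nickel-titanium wire, anchored in drilled holes, put the suture of 4-week-old rats under traction over 7 days. The sham group, of the same age and sampled at the same time, was drilled without a spring. In both groups the skin of the face was cut and parts of the masseter and temporal muscles were parted under chloral hydrate, so the surgery is common to them. Sources used here give no strain, no sex and no number of animals behind a library, and the cell suspension was pooled. Crushed tissue gave the suspension, which was loaded on a BD Rhapsody cartridge that captures cells singly. Each group has 1 library, so no p-value is given anywhere and every interval covers counting error only. By its title the study concerns sutural fibroblasts and endothelial function when the suture is strained.

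Glucose crosses the cell membrane through facilitative transporters, is phosphorylated by a hexokinase and is split and oxidised through glycolysis to pyruvate, which lactate dehydrogenase can turn into lactate. Neutrophils hold few mitochondria and draw much of their energy from glycolysis, dividing precursors use its intermediates for growth, and red cells, which lose their mitochondria as they mature, depend on it. Many genes of the pathway are known targets of hypoxia-inducible factors and of Myc.

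After filtering, the distraction library held 4032 cells and the sham library 5182, with medians of 4156.5 and 3032.5 molecules (UMIs) per cell. Levels are in CPM, the molecules of a gene per 1000000 molecules of the same cells, summed over a class. Classes came from clusters named by marker genes, and clusters were made without the genes of the pathway. Cells of kinds found in marrow made up most of the suspension: B-like cells numbered 1504 in distraction and 3330 in sham, neutrophil-like cells 1212 and 764, erythroid-like cells 424 and 331, monocyte-like cells 238 and 207, and granulocyte progenitor-like cells 106 and 66. The suture's own cells were a small stromal cluster of 110 distraction cells and 76 sham cells, led by Sparc, the collagen genes Col1a1 and Col3a1, and Bglap. One more cluster, with 68 distraction and 64 sham cells, was led by the class II genes RT1-Da, RT1-Ba and Cd74. Its marker score was highest for monocytes and its class II genes are also those of B cells and macrophages, so it is called the class II-led cluster. Marker sums, distraction then sham, were 191418 and 175507 CPM in neutrophil-like cells, 3581 and 3925 CPM in B-like cells, 4724 and 5070.3 CPM in monocyte-like cells and 206608 and 195489 CPM in erythroid-like cells, each for its own list. In the class II-led cluster the dendritic list, class II genes included, summed to 14471 CPM in distraction and 20977 CPM in sham, with Xcr1 at 0 in both. These 7 groups each had at least 50 cells in both libraries. In the 7 groups the skeletal muscle markers summed to at most 19.1 CPM in either library, with Des at 0 outside the stromal cluster. There were 22 barcodes found in both libraries, and leaving out the 41 kept cells that carry them changed no call of a gene past the fold used below.

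Neutrophil-like and monocyte-like cells differed in which of the 2 transporters was high. Slc2a3, which encodes GLUT3, a high-affinity glucose transporter, reached 1259.6 CPM in the distraction library and 1393 CPM in the sham library in neutrophil-like cells. In monocyte-like cells it was at 15.4 CPM in the distraction library and 12.5 CPM in the sham library, the lowest of the 7 groups in both libraries. Neutrophil-like cells were thus the highest group for Slc2a3 in both libraries, with granulocyte progenitor-like cells next at 145 against 143 CPM, distraction against sham, and then the stromal cluster at 67.5 against 76.9 CPM. Below these, the counting intervals of neighbours in the order (class II-led, erythroid-like, B-like and monocyte-like cells) overlapped.

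Slc2a1, which encodes GLUT1, the widely expressed basal glucose transporter, was placed the other way round. Its level was 500.1 CPM in the distraction library and 445 CPM in the sham library in monocyte-like cells. In the class II-led cluster it was 405 CPM in the distraction library and 488 CPM in the sham library. Neutrophil-like cells had 27.5 CPM in the distraction library and 27.7 CPM in the sham library, B-like cells 11.03 against 13.6 CPM and erythroid-like cells 1.58 against 2.57 CPM, each distraction against sham. The monocyte-like cells and the class II-led cluster led in both libraries, with overlapping intervals in the sham library, and erythroid-like cells were last in both. Granulocyte progenitor-like cells, which also held Slc2a3, had 49.0 against 79.1 CPM of Slc2a1, distraction against sham. In the sham library the intervals of granulocyte progenitor-like cells and the stromal cluster also overlapped.

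Shares of cells carrying a molecule gave the same split when each cell was thinned to 2000 UMIs. Slc2a3 was seen in 71.9% of thinned distraction neutrophil-like cells (exact binomial 95% interval 69.2 to 74.5; 81.4% before thinning) and 74.6% of sham ones (71.1 to 77.8; 80.0% before). The intervals of the libraries overlapped. In monocyte-like cells its thinned share was 3.78% in distraction and 1.97% in sham, compared with 16.8% and 9.66% unthinned. B-like cells had 2.22% in distraction and 3.14% in sham after thinning. The monocyte-like intervals of 1.74 to 7.06% in distraction and 0.539 to 4.97% in sham both hold the B-like value. Free RNA was not measured, so low expression and free RNA cannot be told apart at these shares. Slc2a1 was seen in 58.0% of thinned distraction monocyte-like cells (51.4 to 64.3) and 48.3% of sham ones (41.2 to 55.4). Before thinning the Slc2a1 shares were 93.7% and 93.2%. Erythroid-like cells, the lowest for Slc2a1, had 0.519% in distraction and 1.05% in sham after thinning, and 0.943% and 1.81% before. Median depth, distraction then sham, was 4192 and 4016 UMIs in neutrophil-like cells, 13714 and 12229 in monocyte-like cells, 2949 and 2616 in B-like cells and 3890.5 and 3803 in erythroid-like cells.

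The promoters of Slc2a1, Ldha and Hk2 are shown because the first pair is high in monocyte-like cells and Hk2 in the stromal cluster, and the pathway's known regulators bind a short core. The stretches are the 250 bases before the annotated start in RefSeq, build GRCr8, written 5′ to 3′ on the gene's strand, with every ACGTG or GCGTG, on either strand, in capitals. These letters are the core that hypoxia-inducible factors bind. Slc2a1 lies at chr5:138002272-138002521, plus strand, Ldha at chr1:106507842-106508091, plus strand, and Hk2 at chr4:116841276-116841525, minus strand.
Slc2a1: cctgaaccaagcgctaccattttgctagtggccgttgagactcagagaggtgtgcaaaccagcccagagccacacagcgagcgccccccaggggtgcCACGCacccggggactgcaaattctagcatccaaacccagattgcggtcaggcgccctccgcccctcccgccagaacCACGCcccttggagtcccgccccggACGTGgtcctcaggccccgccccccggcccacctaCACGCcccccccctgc
Ldha: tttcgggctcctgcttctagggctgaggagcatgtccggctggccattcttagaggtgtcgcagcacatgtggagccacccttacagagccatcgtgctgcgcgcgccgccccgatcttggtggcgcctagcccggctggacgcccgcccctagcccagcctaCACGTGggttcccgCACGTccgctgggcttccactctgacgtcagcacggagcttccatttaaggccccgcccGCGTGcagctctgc
Hk2: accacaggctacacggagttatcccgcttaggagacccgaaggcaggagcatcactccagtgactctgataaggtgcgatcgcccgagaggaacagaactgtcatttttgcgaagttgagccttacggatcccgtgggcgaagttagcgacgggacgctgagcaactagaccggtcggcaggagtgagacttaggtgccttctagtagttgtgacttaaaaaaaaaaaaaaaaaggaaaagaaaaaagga
The Slc2a1 stretch held 1 ACGTG and 3 GCGTG, and the Ldha stretch 3 ACGTG, with 1 overlap between matches, and 1 GCGTG. The Hk2 stretch held neither, which says only that these letters are not in that window. Aldoa and Pkm are also high in monocyte-like cells but are not shown. The Pkm window held neither core, and of the 3 Aldoa windows 1 held 1 ACGTG and the others neither core. A link between these letters and the levels was not tested. Windows were found for 7 of the 9 genes, 10 windows in all, of which 6 held a match. Of all 33469 promoter windows, 16.6% held ACGTG, 25.9% held GCGTG and 36.7% held either.

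Hexokinase 2, which phosphorylates glucose on entry, was highest in the stromal cluster in both libraries. Hk2 stood at 387 CPM in the distraction library and 355 CPM in the sham library in the stromal cluster. In neutrophil-like cells Hk2 was 114 against 146 CPM, in monocyte-like cells 115 against 132 CPM and in the class II-led cluster 183 against 145 CPM, distraction against sham. B-like cells had 18.0 against 15.4 CPM and erythroid-like cells 5.36 against 9.43 CPM. The stromal interval did not overlap that of any other group in either library. Several neighbours in the order overlapped: monocyte-like, neutrophil-like and progenitor-like cells in distraction, and those and the class II-led cluster in sham. B-like and erythroid-like cells overlapped too in the sham library. After thinning, Hk2 was seen in 37.4% of distraction stromal cells and 34.3% of sham stromal cells, against 62.7% and 68.4% unthinned, and in 0.519% and 1.40% of erythroid-like cells.

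Phosphofructokinase of the liver type, which carries out the committed step of glycolysis, had a narrow range among the classes, 2.91-fold in distraction and 4.21-fold in sham. Pfkl ran between 22.0 CPM in the stromal cluster and 64.0 CPM in erythroid-like cells of the distraction library, and between 23.3 CPM in the stromal cluster and 98.1 CPM in granulocyte progenitor-like cells of the sham library. Every neighbouring pair in the distraction order had overlapping intervals, and so did all but erythroid-like and neutrophil-like cells in the sham order.

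The enzymes from aldolase to lactate dehydrogenase were higher in monocyte-like, neutrophil-like and granulocyte progenitor-like cells than in B-like, erythroid-like and stromal cells in both libraries. Aldoa, the aldolase that splits fructose 1,6-bisphosphate, was 1694 CPM in the distraction library and 1585 CPM in the sham library in monocyte-like cells. In neutrophil-like cells Aldoa was 1261 against 1217 CPM and in erythroid-like cells 305 against 255 CPM, distraction against sham. Monocyte-like cells were first and erythroid-like cells last for Aldoa in both libraries, the last overlapping with B-like cells in the distraction library.

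Pgk1, the phosphoglycerate kinase that yields ATP within the pathway, was 999 CPM in the distraction library and 1083 CPM in the sham library in granulocyte progenitor-like cells. It was 725 against 633 CPM in monocyte-like cells, 487 against 406 CPM in neutrophil-like cells and 154 against 146 CPM in the stromal cluster, distraction against sham. Eno1, the enolase that makes phosphoenolpyruvate, was 743 CPM in the distraction library and 740.1 CPM in the sham library in the same progenitors, and 353 against 326 CPM in neutrophil-like cells. Both genes thus had their highest level in the progenitors in both libraries, with no overlap of intervals with the next group, and their lowest in erythroid-like or stromal cells, whose intervals overlapped.

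Ldha, the subunit of lactate dehydrogenase that favours lactate formation, was 791 CPM in the distraction library and 608 CPM in the sham library in monocyte-like cells and 688 CPM in the distraction library and 646 CPM in the sham library in granulocyte progenitor-like cells. These were the first pair in both libraries, with overlapping intervals in the sham library. Erythroid-like cells were last at 150.1 against 159 CPM, distraction against sham, overlapping in the sham library with the stromal cluster at 163 CPM. Pkm, the pyruvate kinase of most tissues, was at a low level in every group. Its highest level among the groups was 62.1 CPM in distraction and 53.1 CPM in sham monocyte-like cells, and erythroid-like cells gave 4 and 2 counts. Several genes of this pathway have processed copies in the rat genome, and no source used here says how molecules matching several copies were counted, so their absolute levels are uncertain.

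**Figure D1:**
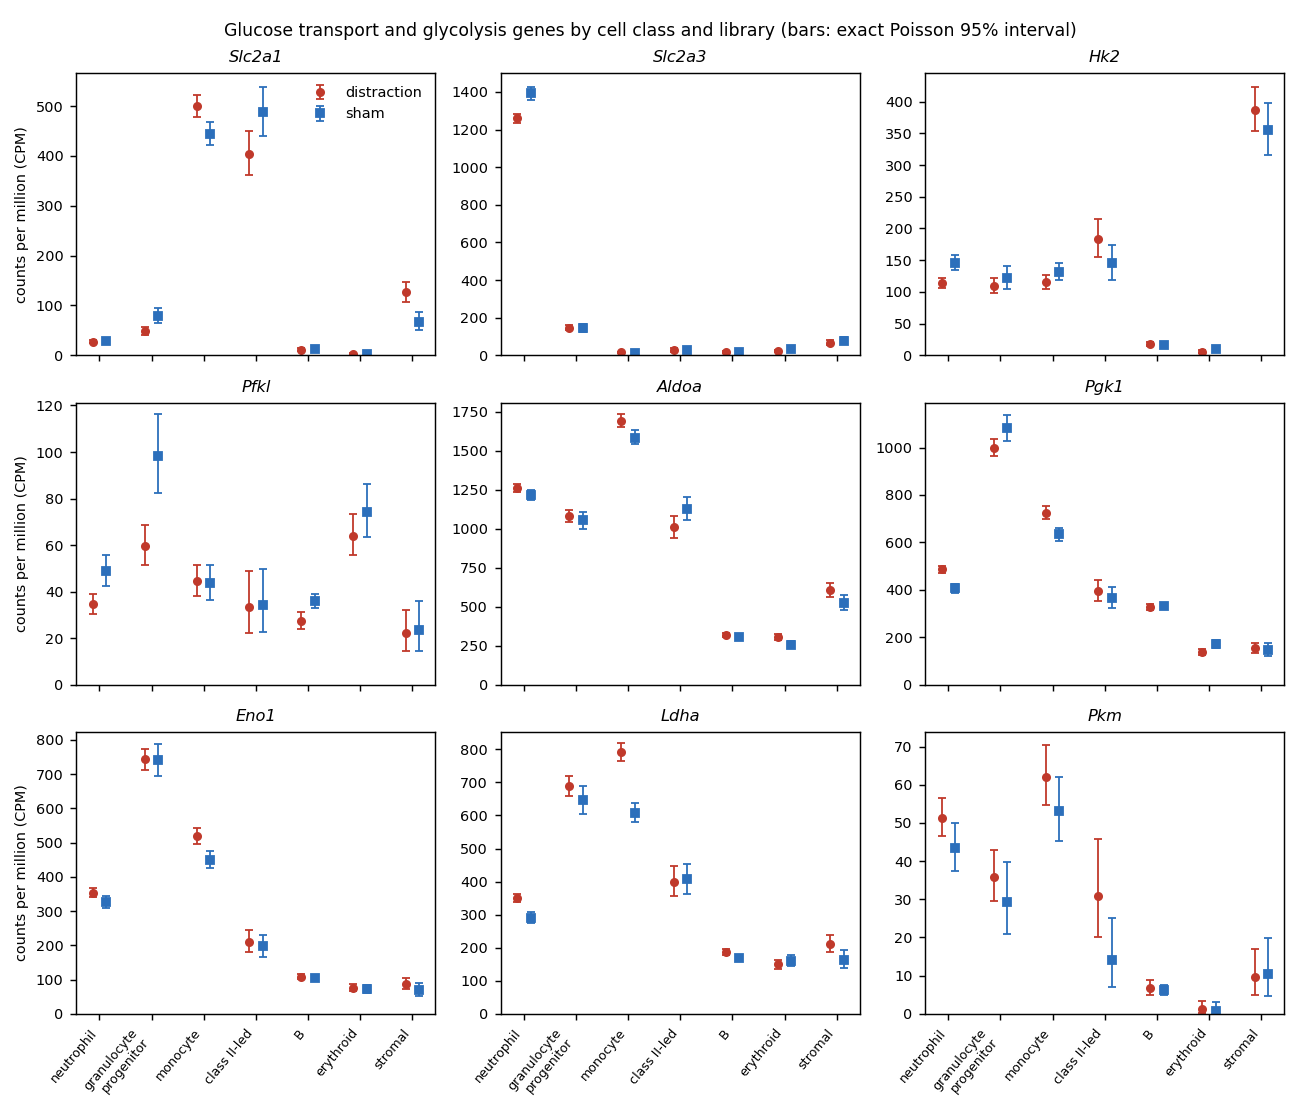
CPM (y axis, linear from 0) of the 9 genes in 7 cell groups (x axis), 1 point per library, distraction (red circles) left of sham (blue squares), with exact Poisson 95% intervals. Slc2a3 stands out in neutrophil-like cells, Slc2a1 in monocyte-like cells and the class II-led cluster, and Hk2 in the stromal cluster.

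Summed over the 9 genes, monocyte-like cells had 4467 CPM in the distraction library and 3962 CPM in the sham library, granulocyte progenitor-like cells 3911 CPM in the distraction library and 3994 CPM in the sham library, and neutrophil-like cells 3938 CPM in the distraction library and 3899 CPM in the sham library. The class II-led cluster had 2693 against 2805 CPM, the stromal cluster 1669.8 against 1436 CPM, B-like cells 1020.5 against 994 CPM and erythroid-like cells 765 against 778 CPM, distraction against sham. In the distraction library the intervals of neutrophil-like and progenitor-like cells overlapped, and in the sham library those of monocyte-like cells overlapped with both. Slc2a3 made up 32.0% of this sum in distraction and 35.7% in sham neutrophil-like cells, and 0.345% and 0.316% in monocyte-like cells. Across the 14 class-by-library points, which pair 7 groups with 2 libraries and so are not independent, the log2 levels of Pgk1 and Eno1 had Pearson's r of 0.958, Eno1 and Ldha 0.940, and Slc2a1 and Slc2a3 -0.143. The lowest values were -0.411 for Hk2 and Pfkl and -0.304 for Slc2a1 and Pfkl.

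Other enzymes of the pathway had class patterns of their own. Pklr, the pyruvate kinase of liver and red cells, was 73.5 CPM in the distraction library and 82.3 CPM in the sham library in erythroid-like cells, the group in which Pkm was lowest, and at most 1.46 CPM in the other 6 groups. Pfkm, the muscle-type phosphofructokinase, was 54.2 against 45.9 CPM in erythroid-like cells, distraction against sham, and 17.9 against 8.15 CPM in the stromal cluster, the next group in order. Ldhb, the other lactate dehydrogenase subunit, was 137 against 128 CPM in B-like cells and 1.52 against 3.96 CPM in neutrophil-like cells. Erythroid-like cells were thus the highest group for Pklr and Pfkm, and B-like cells for Ldhb, in both libraries. Gpi, which makes fructose 6-phosphate, was 1307 against 1222 CPM in granulocyte progenitor-like cells and 112 against 107 CPM in erythroid-like cells. Pgam1, which moves the phosphate of phosphoglycerate, was 696 against 777 CPM in granulocyte progenitor-like cells and 26.2 against 20.1 CPM in erythroid-like cells.

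Genes of lactate export, glycogen use and other branches are given singly. Slc16a3, which exports lactate, was 322 CPM in the distraction library and 296 CPM in the sham library in neutrophil-like cells and 3.98 against 2.62 CPM in B-like cells. Pygl, the glycogen phosphorylase that frees glucose units, was 421 against 443 CPM in neutrophil-like cells and 11.7 against 11.2 CPM in B-like cells, distraction against sham. Tkt, a transketolase of the pentose phosphate pathway, was 1748 against 1612 CPM in neutrophil-like cells and 142 against 138 CPM in B-like cells. Neutrophil-like cells were the highest group for Slc16a3, Pygl and Tkt in both libraries. Pfkfb3, which makes the activator of phosphofructokinase, was 297 against 399.5 CPM in the stromal cluster, where Hk2 was also highest, and 48.7 against 44.7 CPM in neutrophil-like cells.

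Within the neutrophil-like cells the transporters had different stage courses. Stages were assigned per cell from marker genes, none of them a gene of the pathway. In the order of granule formation they were early (primary granule and defensin genes), secondary granule, tertiary granule and mature. The mature markers were the receptor genes Il1r2, Cxcr2 and Csf3r, the chemokine and cytokine genes Ccl6, Cxcl2 and Il1b, and Ifitm1. Maturity and activation therefore cannot be told apart in the mature stage. Slc2a3 was 691 CPM in the distraction library and 594 CPM in the sham library in early cells, 1692 CPM in the distraction library and 1889.6 CPM in the sham library at the secondary granule stage, 2086 CPM in the distraction library and 2433 CPM in the sham library at the tertiary granule stage and 1289 CPM in the distraction library and 1154 CPM in the sham library in mature cells. No neighbouring intervals overlapped in either library, so the peak at the tertiary granule stage exceeded counting error in both. With stages taken from whole clusters no cluster stood for the tertiary stage, so the peak has no such check. Slc2a1 was at most 21.7 CPM in the first 3 stages in either library and 144 CPM in the distraction library and 100.5 CPM in the sham library in mature cells, whose intervals lay apart from all other stages. Slc2a6, a further hexose transporter gene, was 3.92 against 4.95 CPM at the secondary granule stage, 122 against 66.5 CPM at the tertiary stage and 219 against 188 CPM in mature cells.

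Enzymes followed several courses over the same stages. Hk2 was 65.0 against 91.1 CPM in early and 192 against 257 CPM in mature neutrophil-like cells, distraction against sham, the lowest and the highest stage in both libraries. Eno1 ran the other way, with 446 against 372 CPM in early and 224 against 261 CPM in mature cells, although neighbouring stages overlapped, apart from early and secondary granule cells of the distraction library. Aldoa was 962 against 860.0 CPM in early cells and 1753 against 1561 CPM at the tertiary granule stage, its highest stage in both libraries, overlapping with mature cells at 1666 against 1537 CPM. Pfkl was 27.6 against 33.1 CPM in early and 68.0 against 108 CPM in mature cells. Like Hk2, Pfkl was thus lowest in early and highest in mature cells of both libraries, while Pkm intervals overlapped between neighbouring stages. For Hk2 the intervals of mature and tertiary granule cells overlapped in sham. For Pfkl those of early cells and the next lowest stage overlapped in both libraries. Ldha was 381 against 257 CPM in early cells and 395 against 400.3 CPM in mature cells, and Pgk1 stayed between 424 and 531 CPM in the distraction library and between 366 and 463 CPM in the sham library. Ldha was highest in mature cells in both libraries, overlapping with early cells in distraction. Slc16a3 was 152 against 180.5 CPM at the secondary granule stage, 1049 against 775 CPM at the tertiary stage and 1046 against 901 CPM in mature cells. Hif1a, which encodes the subunit of hypoxia-inducible factor 1 that responds to oxygen, was 136 against 184 CPM in early and 315 against 450.5 CPM in mature cells. Stages are ranges of a score, not types, and 20% of tertiary-stage cells lay within 0.1 of another stage's score. Median depth was lower in later stages, at 2587 UMIs in mature distraction cells and 2616 in mature sham cells, compared with 14769 and 10550.5 in early cells, and its part in the stage courses was not tested.

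**Figure D2:**
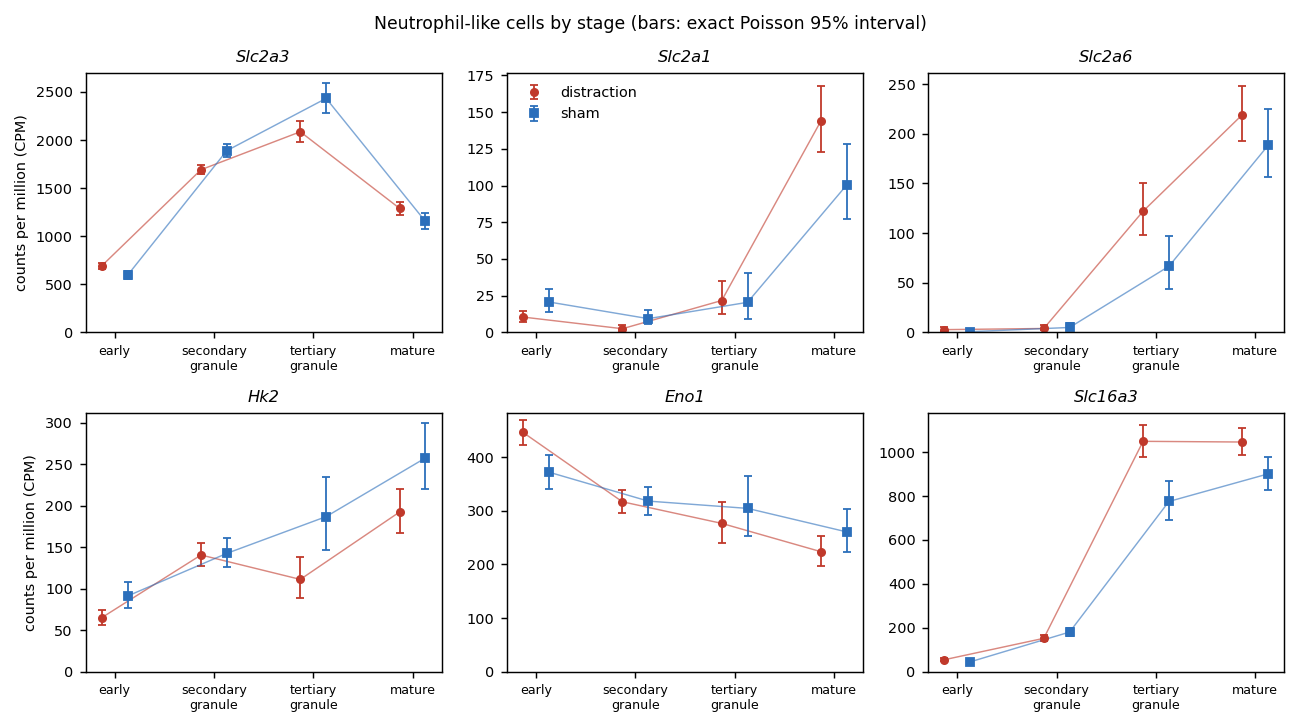
CPM (y axis, linear from 0) of 4 listed genes and of Slc2a6 and Slc16a3 over the 4 stages of neutrophil-like cells (x axis), distraction in red circles left of sham in blue squares, with exact Poisson 95% intervals; lines join the points of a library. Slc2a3 peaks at the tertiary granule stage and Slc2a1 is highest in mature cells.

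In B-like cells Pgk1, Eno1 and Ldha were highest in S phase and lowest in resting pre-B or in immature and mature B cells. A stage is the highest of the marker scores, so cells named resting were not shown to be out of cycle. Pgk1 was 449 CPM in the distraction library and 488 CPM in the sham library in S phase cells, 335 against 376 CPM in G2/M cells, 232 against 210.0 CPM in resting pre-B cells and 152 against 154 CPM in immature and mature B cells, distraction against sham. No neighbouring intervals overlapped for Pgk1 in either library. With stages taken from whole clusters, where none stood for S phase, Pgk1 in resting pre-B cells was 352 against 334 CPM and in G2/M cells 337 against 367 CPM, so the order of these stages turned round in distraction. Ldha was 268 against 279 CPM in S phase and 101 against 95.6 CPM in immature and mature cells, with 112 against 81.6 CPM in resting pre-B cells (176 against 142 CPM from whole clusters), and Eno1 133 against 149 and 52.6 against 69.2 CPM in the same stages. Aldoa did not follow this course, with 364 against 374 CPM in S phase and 372 against 304 CPM in immature and mature cells. The transporters were low in every stage: Slc2a1 was at most 17.2 CPM and Slc2a3 at most 24.2 CPM in either library, with neighbouring stages overlapping. Txnip, an inhibitor of glucose uptake, was 77.6 against 76.1 CPM in S phase, 101 against 97.3 CPM in G2/M, 269.6 against 286 CPM in resting pre-B and 279.6 against 267 CPM in immature and mature cells. Depth moved with stage here too, with medians of 7760 UMIs in S phase and 2355 in immature and mature cells of the distraction library, and 6501 and 2280 in the sham library.

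In erythroid-like cells Aldoa, Pgk1, Eno1 and Ldha were highest in the early stage in both libraries. The 9 genes summed to 1103 CPM in the distraction library and 1145 CPM in the sham library in early cells, 167 CPM in the distraction library and 151 CPM in the sham library in cells expressing membrane skeleton genes, and 131 CPM in the distraction library and 189 CPM in the sham library in late cells. Early cells were above both later stages beyond counting error in each library, and the later stages overlapped. With stages taken from whole clusters the middle stage summed to 213 CPM in distraction and 261 CPM in sham, and its Ldha in sham was 33.9 CPM, compared with 10.2 CPM from single-cell stages. Aldoa was 443 against 378 CPM in early and 55.6 against 77.8 CPM in late cells, and Ldha 224 against 247 and 11.1 against 18.2 CPM, distraction against sham. The late Ldha levels rest on 6 and 7 counts, and the 10.2 CPM of the middle stage in sham on 5 counts. Pklr was 107 against 123 CPM in early cells and 9.26 against 0 CPM in late cells. Haemoglobin took up 5.16% of molecules in early distraction cells and 3.58% in early sham cells, and 53.2% and 52.4% in late cells. Scaled to the total without haemoglobin, ribosomal protein, mitochondrial, S100a8 and S100a9 molecules, the sum was 1470.1 in early and 312 in late distraction cells, and 1471 in early and 438 in late sham cells. Bpgm, which makes the 2,3-bisphosphoglycerate of red cells, was used to define the late stage, and its 2770.5 CPM in distraction and 2794 CPM in sham late cells are therefore no finding. Minpp1, which can take a phosphate from that compound and defined no stage, was 903 against 849 CPM in early and 66.7 against 28.5 CPM in late cells.

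**Figure D3:**
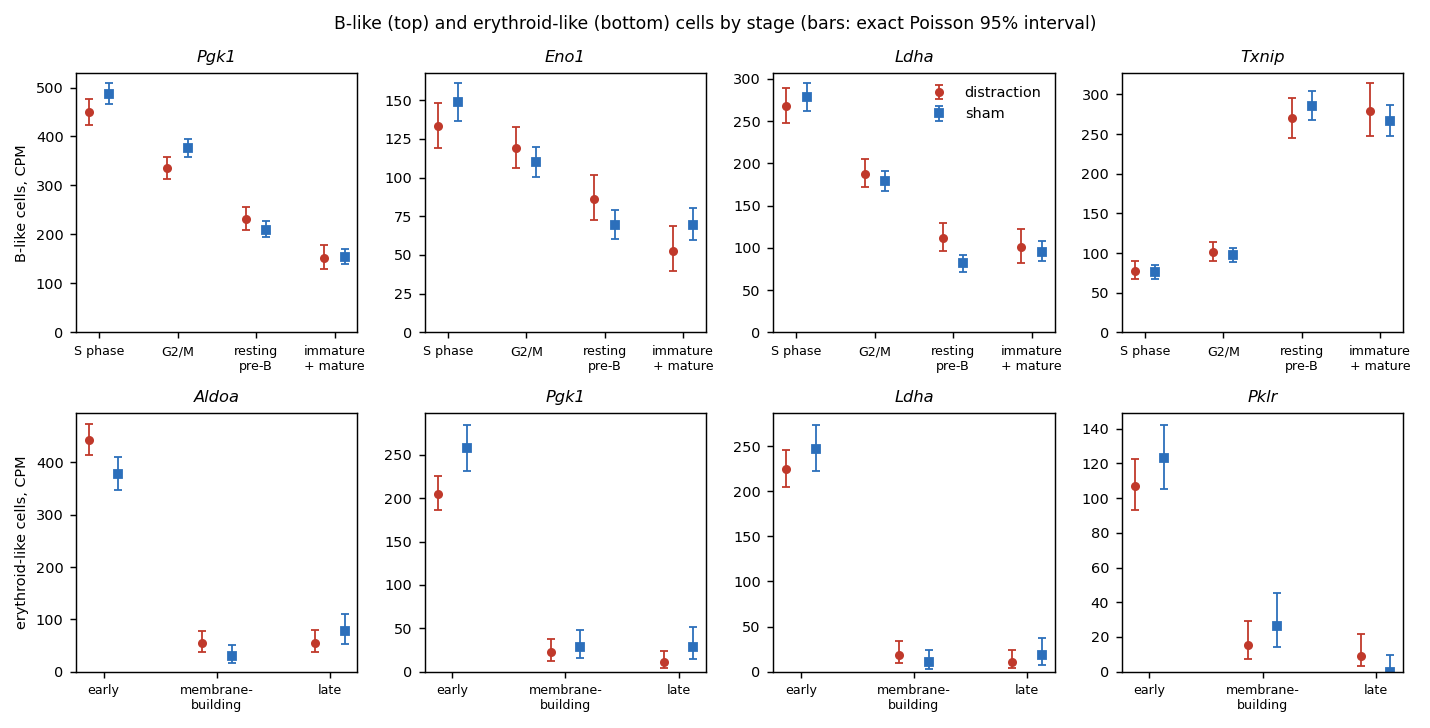
CPM (y axes, linear from 0) over the stages (x axes) of B-like cells (top row) and erythroid-like cells (bottom row), distraction in red circles left of sham in blue squares, with exact Poisson 95% intervals. Pgk1, Eno1 and Ldha are highest in S phase while Txnip is highest in resting pre-B or in immature and mature B cells. The erythroid levels are highest in the early stage.

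Over all cells the distraction library carried more of the pathway, and within classes the libraries lay close. The 9 genes summed to 2756 CPM in the distraction library and 2040.5 CPM in the sham library over all cells, a ratio of 1.35 (1.34 to 1.36), with an exact conditional binomial 95% interval in parentheses here and below. Of the 9, 8 were higher and 1, Pfkl, was lower in the distraction library. With both libraries weighted to the class shares of the sham library the ratio of the sum was 1.04, and with the sham levels held and the shares of the distraction library applied it was 1.30. Neutrophil-like cells gave 25.4% of distraction and 14.6% of sham molecules, B-like cells 25.02% and 49.3%. Fewer cells of a class in the suture and fewer that reached the cartridge cannot be told apart from these data. Slc2a3 had the largest shift of this kind, 1.57 (1.52 to 1.62) over all cells and 0.929 at sham shares, and Pfkl was 0.888 (0.823 to 0.958) over all cells and 0.792 at sham shares.

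A gene was counted as past the fold in a group when its CPM differed at least 1.5 times, with at least 50 CPM in 1 library and 30 counts in both together. Over all cells 1 of 7 counted members, Slc2a3, was past it, higher in distraction, where 5.47% of all counted genes were higher and 9.24% lower. None of 4 counted members was past it in B-like cells (all genes 0.11% higher, 0.357% lower), none of 7 in neutrophil-like cells (0.662% and 2.25%) and none of 7 in monocyte-like cells (0.623% and 1.39%). The same held for 6 counted members in the class II-led cluster (all genes 5.19% higher, 7.15% lower) and 5 in erythroid-like cells (0.504% and 2.35%). In granulocyte progenitor-like cells 2 of 8 were lower (5.84% of all genes lower, 1.69% higher), and in the stromal cluster 1 of 7 was higher (17.4% higher, 12.1% lower), which is no larger a share than among all genes there. The median log2 ratio of the 9 genes was 0.44 over all cells, 0.05 in B-like, 0.05 in neutrophil-like, 0.20 in monocyte-like, 0.01 in progenitor-like, 0.03 in class II-led, -0.21 in erythroid-like and 0.12 in stromal cells. Over the counted members alone the medians were 0.44, 0.07, 0.11, 0.20, -0.05, 0.04, -0.09 and 0.20 in the same groups. The median over all counted genes was -0.16, -0.02, -0.05, -0.0041, -0.14, 0.01, -0.06 and 0.17.

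Among the 7 groups with at least 50 cells in both libraries, monocyte-like cells had the ratio of the sum farthest from 1 after the stromal cluster, 1.13 (1.10 to 1.15), with 8 of 9 genes higher in distraction and Hk2 lower. Ldha led it with 791 CPM in the distraction library and 608 CPM in the sham library, a ratio of 1.30 (1.23 to 1.38). Pgk1 was 1.15 (1.08 to 1.21) and Eno1 1.15 (1.08 to 1.24) in the same cells. In neutrophil-like cells the sum was 1.01 (0.991 to 1.03), made of genes on both sides: Ldha 1.21 (1.13 to 1.29) and Pgk1 1.20 (1.13 to 1.27) above 1, Hk2 0.780 (0.703 to 0.865) and Slc2a3 0.905 (0.876 to 0.934) below. The intervals of these 4 genes exclude 1, but they hold no spread between animals and no effect of scaling. Over the processing alternatives the ratio ran from 0.879 to 0.982 for Slc2a3 and from 0.774 to 0.883 for Hk2. It ran from 1.06 to 1.31 for Ldha and from 1.09 to 1.30 for Pgk1. By stage the Slc2a3 ratio was 1.16 in early, 0.895 in secondary granule, 0.857 in tertiary granule and 1.12 in mature cells, so the class value mixes both directions. The Ldha ratio was 1.48 in early, 1.13 in secondary granule, 0.988 in tertiary granule and 0.986 in mature cells. In B-like cells the sum was 1.03 (0.999 to 1.06) and in erythroid-like cells 0.983 (0.924 to 1.04), and both intervals include 1.

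Slc2a1 and Pfkl were the genes past the fold in granulocyte progenitor-like cells. Slc2a1 was 49.0 CPM in the distraction library and 79.1 CPM in the sham library, a ratio of 0.619 (0.481 to 0.799), and Pfkl was 59.6 CPM in the distraction library and 98.1 CPM in the sham library, a ratio of 0.608 (0.485 to 0.764). Both were lower in distraction, on 156 and 108 counts of Slc2a1 and 190 and 134 of Pfkl. The cells of this class held a median of 33516 UMIs in distraction and 22890 in sham, and after thinning to 2000 UMIs the ratios were 0.183 for Slc2a1 and 0.196 for Pfkl, on fewer counts than the minimum. The call for Slc2a1 was kept in 8 of 13 alternatives. It was lost with every deposited cell (0.728), with at least 1500 UMIs (0.859), with single-cell classes (0.708), after thinning and with TMM scaling. The call for Pfkl was kept in 10 of 13 and lost with at least 1500 UMIs (0.693), after thinning and with TMM scaling. TMM scaling, which shifts this class by -0.16 on the log2 scale, gave 0.692 for Slc2a1 and 0.680 for Pfkl.

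**Figure D4:**
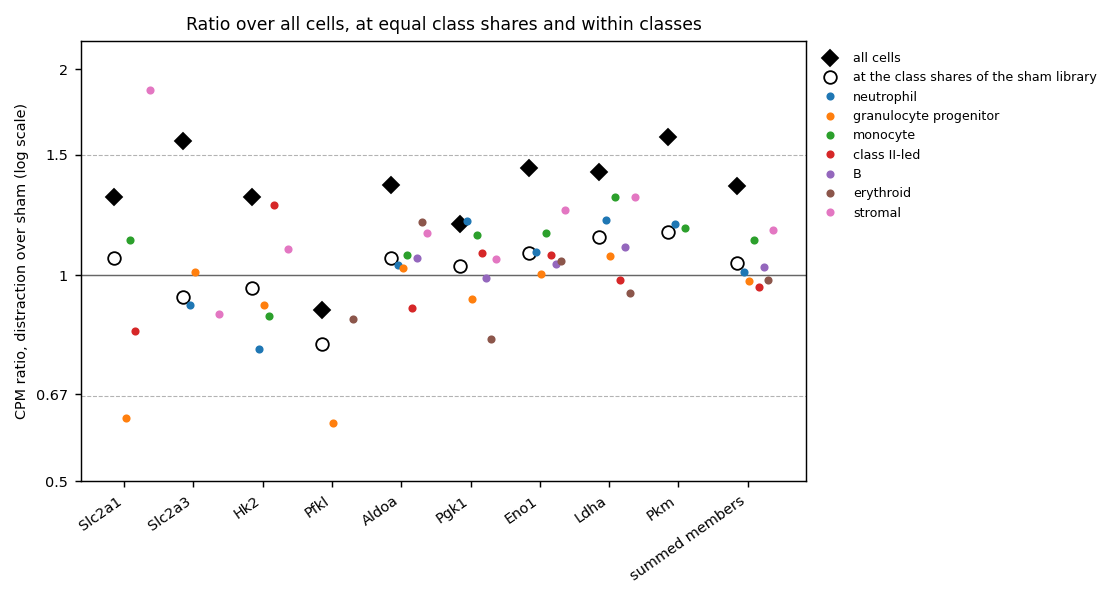
CPM ratio of distraction over sham (y axis, log scale) for each of the 9 genes and their sum (x axis): over all cells (black diamonds), at the class shares of the sham library (open circles), and within each group for genes above the minimum (coloured dots); dashed lines mark 1.5-fold. The all-cell ratio of the sum, 1.35, moves to 1.04 at equal shares.

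The stromal cluster held the cells the study's title is about. Slc2a1 was 126 CPM in the distraction library and 67.6 CPM in the sham library, a ratio of 1.87 (1.37 to 2.57) on 155 and 58 counts, higher in distraction with intervals of 107 to 148 and 51.3 to 87.3 CPM that did not overlap. Ldha was 212 against 163 CPM, a ratio of 1.30 (1.06 to 1.61), Aldoa 604 against 524 CPM, 1.15 (1.02 to 1.30), and Hk2 387 against 355 CPM, 1.09 (0.942 to 1.26). Slc2a3 was 67.5 against 76.9 CPM, 0.879 (0.628 to 1.23). The call for Slc2a1 was kept in 11 of 13 alternatives and lost with classes from single-cell scores (1.25) and after thinning to 2000 UMIs (1.35).

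The makeup of this cluster differed between the libraries. The 7 fibroblast markers summed to 21458 CPM in distraction and 8512 CPM in sham, the 8 osteoblast markers to 7773 and 24768 CPM with Sp7 at 0 in both, and the 10 endothelial markers to 951 and 1083 CPM. Sub-clusters held 66 distraction and 23 sham fibroblast-like cells, 12 and 25 osteoblast-like cells, and 25 and 16 endothelial-like cells, too few for a ratio. Slc2a1 was 152 CPM (126 to 181) in distraction and 75.7 CPM (43.3 to 123) in sham fibroblast-like cells, 127 (83.1 to 186) and 164 CPM (100.1 to 253) in endothelial-like cells, and 17.5 (3.61 to 51.2) and 38.0 CPM (22.2 to 60.9) in osteoblast-like cells. The fibroblast-like levels lay apart by library and the others overlapped. The sham fibroblast-like level rests on 16 counts, and of the 4 sub-clusters pooled as fibroblast-like, the deepest, with a median of 20217 UMIs, held 9 distraction and 0 sham cells; of the pair pooled as osteoblast-like, 1 held 0 distraction and 6 sham cells. Hk2 was 466 against 407 CPM in fibroblast-like cells, 374 against 403 CPM in osteoblast-like cells and 83.2 against 98.3 CPM in endothelial-like cells, so the endothelial-like cells were the lowest in both libraries, with intervals apart from all other sub-clusters. Slc2a3 was placed otherwise, with 132 against 246 CPM in endothelial-like cells, 49.4 against 75.7 CPM in fibroblast-like cells and 23.4 against 6.71 CPM in osteoblast-like cells. Ldha was 362 against 475 CPM in endothelial-like cells and 172 against 137 CPM in fibroblast-like cells, apart in both libraries. In osteoblast-like cells Ldha was 204 CPM (142 to 284) in distraction and 87.3 CPM (62.0 to 119) in sham, on 35 and 39 counts, and these intervals did not overlap. The part of the shift in makeup in the Slc2a1 ratio of the whole cluster was not tested.

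**Figure D5:**
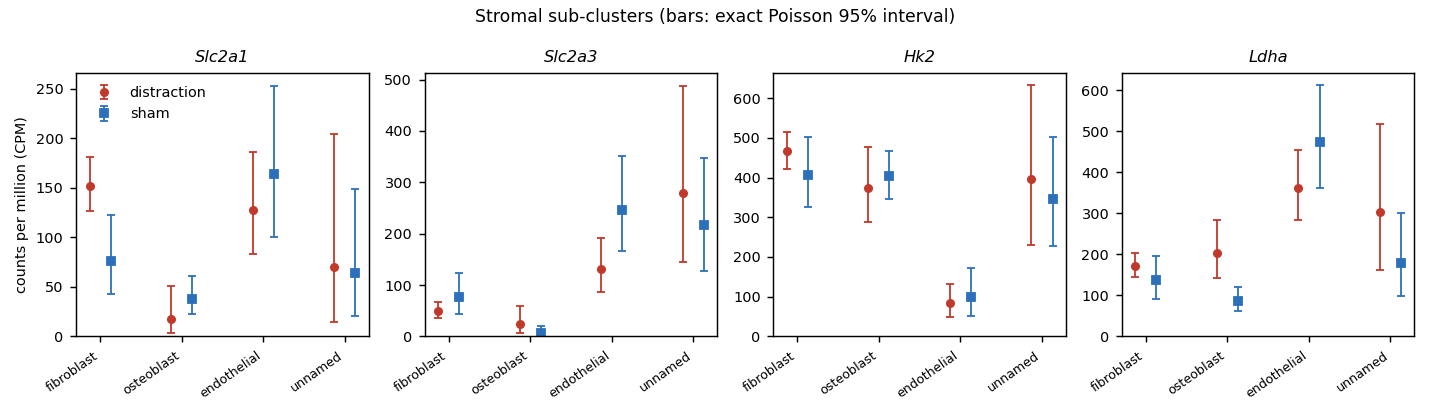
CPM (y axes, linear from 0) of Slc2a1, Slc2a3, Hk2 and Ldha in the 4 stromal sub-clusters (x axes), distraction in red circles left of sham in blue squares, with exact Poisson 95% intervals. Slc2a1 is higher in distraction than in sham fibroblast-like cells, and Hk2 is lowest in endothelial-like cells of both libraries; the unnamed sub-cluster holds 7 distraction and 12 sham cells.

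Of 87 other genes of the pathway and its regulators, 83 were found, and few were past the fold within a class. None was in B-like (20 counted), neutrophil-like (22), granulocyte progenitor-like (25) or erythroid-like cells (22). In monocyte-like cells 2 of 25 were lower in distraction, where 1.39% of all counted genes were lower, Slc2a6 at 55.7 against 88.7 CPM and Rpia, an isomerase of the pentose phosphate pathway, at 53.9 against 92.0 CPM. In the class II-led cluster 4 of 25 were lower and 1 higher, beside 7.15% of all genes lower and 5.19% higher. Hif1a was 118 against 245 CPM, a ratio of 0.480 (0.371 to 0.616), Vegfa, the vascular growth factor, 299.5 against 449.7 CPM, Pdhb, a subunit of pyruvate dehydrogenase, 106 against 175 CPM, Ndrg1, a gene induced by hypoxia, 106 against 170.2 CPM, and Ddit4, a stress-induced inhibitor of mTOR signalling, the 1 that was higher, 183 against 117 CPM. The marker sum of this cluster was also lower in distraction, as given above, and its part in these values was not tested. In the stromal cluster 3 of 27 were higher and 1 lower, beside 17.4% of all genes higher and 12.1% lower, so neither share exceeds that of all genes: among those higher were Kdm3a, a histone demethylase induced by hypoxia, at 119 against 65.2 CPM and Rpia at 50.5 against 31.4 CPM, and Adm, the vasodilator adrenomedullin, was lower at 104 against 209.7 CPM, all distraction against sham. Over all cells 3 of 30 were higher, beside 5.47% of all genes, Slc16a3 at 105 against 61.7 CPM, Tkt at 895 against 588 CPM and Pygl at 149 against 97.3 CPM, and 1 was lower, beside 9.24%, Ldhb at 48.4 against 75.5 CPM.

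Over the 14 class-by-library points, AABR07029581.1, a locus named by an identifier alone, followed the summed genes most closely among 5820 genes, with Pearson's r of 0.987 on log2(CPM + 1). Prdx5, a peroxiredoxin, followed at 0.977, then Ogfrl1 at 0.975, Myo1f, a class I myosin of leukocytes, at 0.973, and Mboat1 at 0.970. For single genes the closest were Map2k1 for Slc2a1 (0.971), Ctsh for Hk2 (0.966), Rab32 for Aldoa (0.988), Efcab14 for Pgk1 (0.978), Mgst2 for Eno1 (0.966) and Cst7 for Ldha (0.970). The points share their library totals and come in pairs, so these values describe the pattern and carry no test.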

How the data were processed

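For each library the authors deposited raw counts, whole UMI numbers by gene and cell, from BD's WTA Rhapsody pipeline, version 1.5.1, per the file headers. The submitters' processing notes name Rnor_6.0 and Seurat 3.6. No source used here gives the annotation release, the rule for calling cells, or how multi-matching reads were treated. The tables held 4889 distraction cells with 32078960 UMIs and 5351 sham cells with 29924342 UMIs. Their shallowest cells had 125 and 920 UMIs. Genes absent from 1 table were set to 0 there.

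Filters asked for 500 UMIs, 200 genes and less than 25% mitochondrial UMIs per cell. The doublet caller marked 5 distraction cells and 1 sham cell, so it is taken as not having worked and doublets remain. Both libraries were clustered together with scanpy 1.11.5 and leidenalg 0.10.2 (2000 variable genes without the pathway genes, 30 components, 15 neighbours, resolution 1). A cluster with at least 3 markers of a class raised took the class with most genes among its 10 leading ones; ties went to the larger share of markers raised. Clusters led by granule genes of other lineages, or with no own gene among the leading 10, stayed unnamed. So did a cluster whose leading genes belonged most to a class that missed the marker minimum. The unnamed cells numbered 299 in distraction and 286 in sham. The early neutrophil cluster scored higher on progenitor markers than on its own, and Hbb was among the leading genes of the macrophage-like cluster. The naming rule, the margin of 0.1 between stages and the single-cell scoring used as an alternative were set after seeing the clusters. Stages took the highest mean z-score of stage markers per cell within a class.

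Counts were summed per class and library and scaled to CPM, with exact 95% intervals (Poisson for levels, binomial for shares, conditional binomial for ratios). Molecules of 1 library are not independent animals. The alternatives are given in the closing section. The steps were tested on simulated data. The genes, lists and markers were chosen with earlier results of these data known. All 9 genes are described; of other pathway lists up to 3 genes were named by largest ratio in a class or highest level. Run and handling cannot be told apart from treatment, with 1 library each. Promoters were matched by symbol in RefSeq, build GRCr8, which is not the build of the counts. The values of 1 gene of the other pathway lists are not reported here.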

Additional observations from a re-analysis of the deposited data

Results flagged for a closer look

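Slc2a1 was past the 1.5-fold mark in opposite directions in 2 cell groups. It was lower in distraction in granulocyte progenitor-like cells, at 0.619 (0.481 to 0.799) times the sham level, and higher in the stromal cluster, at 1.87 (1.37 to 2.57) times. Each group has 1 library on each side, so the difference between the 2 ratios was not tested. In granulocyte progenitor-like cells 12.2% of the distraction counts and 14.8% of the sham counts came from 1 cell each, and in the stromal cluster 10.3% and 12.1%. Without those cells the ratios were 0.623 and 1.89. The fibroblast markers of the stromal cluster were higher in the same direction as Slc2a1, and their part in the result was not tested.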

How the results depend on the processing

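No paired analysis was possible because each group has 1 library. Of the alternatives to the summed ratios and counts of genes past 1.5-fold, 151 stayed within the counting interval (or 1.5 times the count) and 34 moved; for single genes, stages and shares 753 stayed and 124 moved, and no called ratio reversed. The sums ran as follows, distraction over sham. With every deposited cell the all-cell ratio was 1.33 and that of granulocyte progenitor-like cells 1.03, with 1 gene past the fold. With at least 1500 UMIs the progenitors gave 1.03 and 0 genes, the stromal cluster 1.34 and 2, and the ratio at sham shares was 1.06. Single-cell classes gave 1.02 and 1 in progenitors, 1.10 and 1 in the dendritic-scored cells, and 0 genes in stromal cells; their scoring form was picked for its match with the clusters. Resolution 2 gave 1.33 and 2 in the stromal cluster and 1.06 at sham shares, and pathway genes kept for clustering 1.06 at sham shares. With pathway genes kept, no ratio was obtained for the class II-led cluster, so its values have no check of this kind. Leaving abundant genes out of the total gave 1.03 in neutrophil-like cells. TMM scaling, which shifts all cells by -0.16, neutrophil-like cells by -0.12 and erythroid-like cells by -0.10 (log2), gave 1.10, 1.09 with 0 genes, and 1.05 in neutrophil-like, progenitor-like and erythroid-like cells. Thinning gave 0.989 with 2 genes, 1.10 with 0 genes, and 1.18 in neutrophil-like, progenitor-like and monocyte-like cells. Equal weight per cell gave 1.16 in monocyte-like cells, 0.786 with 1 gene in erythroid-like cells, and 1.002 with 2 genes in the stromal cluster. With no minimum 1 gene was past the fold in the class II-led cluster and 2 in erythroid-like cells. The cause of these shifts was not tested. The alternative without shared barcodes was chosen after seeing the data. Depth limits Pkm, Pfkl and the transporters of B-like and erythroid-like cells.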

Other observations

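Some groups too small for a ratio lay above the larger ones. In megakaryocyte-like cells, 21 in distraction and 14 in sham, Ldha was 2748 CPM in the distraction library and 2378 CPM in the sham library, and the 9 genes summed to 6902 against 5640.5 CPM, distraction against sham; both were above all 7 larger groups in each library. Their Slc2a3 was 1029 against 666 CPM, distraction against sham, but 1 cell gave 36.0% of the distraction counts and 1 cell 57.1% of the sham counts. Mast and basophil-like cells, 20 and 18, had 1165 against 1258 CPM of Ldha and 333 against 354 CPM of Slc2a3. Macrophage-like cells, 30 and 26, had 1001 against 849 CPM of Aldoa and 275 against 179.9 CPM of Pfkfb3. Slc2a1 in these macrophage-like cells was 192 CPM in distraction on 89 counts and 25.2 CPM in sham on 7 counts, with 22.5% of the distraction counts from 1 cell.

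Of the unnamed clusters, the one led by the eosinophil granule genes Prg2, Prg3 and Epx had 320.4 against 258 CPM of Slc2a3, distraction against sham, and 39.2 against 23.0 CPM of Slc2a1. Its Aldoa was 1402 against 1504 CPM, distraction against sham. A cluster led by mast cell protease genes and Mpo had 804 against 881 CPM of Pgk1 and 92.0 against 99.4 CPM of Slc2a3. The cluster led by RT1-Da and Igh-6 had 1328 against 1296 CPM over the 9 genes and 37.8 against 47.5 CPM of Slc2a1.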
